A study of Homo sapiens with 4 samples.

Results

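Remote regions are stretches of chromatin carrying H3K27ac that lie 100 to 500 kb from the nearest protein-coding gene start the authors list. They were chosen by width and distance: of the 91107 distinct regions in the authors' deposited table, those that touch no listed start, are under 8000 bases wide and have a smallest distance of 100001 to 500000 bases were kept. The rule kept 20917 regions (23.0% of all). The rule did not use the fold change, the mean level or the p-values. At the near limit, the region assigned to FGF3 at 100002 bases lay just inside (log2 fold change 0.65 ± 0.54) and that of ST8SIA6 at 99989 bases just outside (0.35 ± 0.82). At the far limit the region of STPG2 at 499966 bases (1.44 ± 0.89) lay just inside. At the limit of width IGF1R with 7998 bases (0.16 ± 0.24) lay just inside and KLF6 with 8005 bases just outside (0.41 ± 0.24), all in the authors' deposited table.

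A375 is an established human melanoma cell line. Cells grown in DMEM with fetal bovine serum received 1 mM octanoate, a medium-chain fatty acid, or the isopropanol it was dissolved in, for 48 hours. H3K27ac chromatin was then immunoprecipitated from paraformaldehyde-fixed cells and sequenced, with 2 libraries in each group. The labels do not say that the libraries of a group came from separate cultures, and 1 cell line stands for the tumour type.

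H3K27ac is acetylation of histone H3 at lysine 27, laid down by the acetyltransferases p300 and CBP at active promoters and enhancers. Enhancers are stretches of DNA bound by transcription factors that raise transcription of a gene which may lie far away along the chromosome, brought close by looping of the chromatin fibre. Genes of development and cell identity are often surrounded by many such elements. The nearest gene start, by which these regions are assigned, is therefore a label of position, and the target of a remote enhancer can be another gene.

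The authors' deposited table holds 1 comparison and gives each region's mean level over the libraries, its fold change on the log2 scale with a standard error (SE), and p-values. It gives no value per library, so depth and the spread between replicates are unknown, and each error quoted with ± is the SE that the authors' model assigned to that region. The header does not say which treatment is the numerator, so fold changes are given as positive or negative. The adjusted p-values match an adjustment over 36436 regions, here called tested, of which 6728 were remote. The other 14189 remote regions had mean levels of at most 18.4 and are listed with an adjusted p-value of 1. A region with an adjusted p-value under 0.05 in the authors' deposited table is called below. As a check of the cell type, 4 of 8 melanocytic markers had a region at their start in the authors' deposited table (SOX10 with a mean level of 774, PMEL 269, MITF 98.4 and S100B 55.2), and MLANA, TYR, DCT and TYRP1 had none. No start region was listed for any of 8 keratinocyte or 7 immune markers, 1 of 7 endothelial markers (KDR, 13.9) had one, and 5 of 8 fibroblast markers had one, with levels up to 78.9 for PDGFRB.

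Some of these remote regions hold the start of a gene that the authors' list of starts does not use, and those starts are the sequences that can be shown. Among the 19644 members on the chromosomes covered by the RefSeq promoter table (GRCh38.p14, the build hg38 that the submitters' processing notes name), 563 overlapped an annotated start. For 371 of these every start belonged to a long non-coding RNA (lncRNA) gene, and 192 held a protein-coding start. These members lie on a start as well as far from a listed one. Of the called members on these chromosomes, 7 held a start. The sequences below are 4 of the starts inside them, from 250 bases before to 50 bases after the start, shown because the called regions of ETS1, HMGA2, FBLN2 and SHH lie on them. Capitals mark matches, on either strand, to any of the motifs TGANTCA of AP-1, TGACGTCA of CREB, the E-box CACGTG, the M-box core CATGTG, the TATA motif TATAAA, the GC box GGGCGG and the PPAR element AGGTCANAGGTCA. No motif in this list is contained in another.
LINC02098, chr11:128208516-128208815, plus strand, in the region assigned to ETS1: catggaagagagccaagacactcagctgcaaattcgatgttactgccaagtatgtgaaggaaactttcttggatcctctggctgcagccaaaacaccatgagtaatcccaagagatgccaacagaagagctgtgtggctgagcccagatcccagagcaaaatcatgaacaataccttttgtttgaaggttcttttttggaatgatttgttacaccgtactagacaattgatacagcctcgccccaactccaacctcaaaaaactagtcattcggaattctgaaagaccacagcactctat
LINC02454, chr12:65602619-65602918, plus strand, in the region assigned to HMGA2: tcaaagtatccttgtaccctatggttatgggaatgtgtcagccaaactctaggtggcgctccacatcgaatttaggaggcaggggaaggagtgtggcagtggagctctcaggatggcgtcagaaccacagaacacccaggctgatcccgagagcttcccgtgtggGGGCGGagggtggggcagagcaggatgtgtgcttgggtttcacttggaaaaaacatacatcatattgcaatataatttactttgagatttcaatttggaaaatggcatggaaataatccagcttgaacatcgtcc
LINC00620, chr3:13650471-13650770, plus strand, in the region assigned to FBLN2: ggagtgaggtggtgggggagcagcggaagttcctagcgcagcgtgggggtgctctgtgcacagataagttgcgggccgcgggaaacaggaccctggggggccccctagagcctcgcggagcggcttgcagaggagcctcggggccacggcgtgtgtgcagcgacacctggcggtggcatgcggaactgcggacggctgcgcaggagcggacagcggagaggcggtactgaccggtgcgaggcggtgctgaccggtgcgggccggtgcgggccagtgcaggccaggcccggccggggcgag
LOC389602, chr7:155962307-155962606, plus strand, in the region assigned to SHH: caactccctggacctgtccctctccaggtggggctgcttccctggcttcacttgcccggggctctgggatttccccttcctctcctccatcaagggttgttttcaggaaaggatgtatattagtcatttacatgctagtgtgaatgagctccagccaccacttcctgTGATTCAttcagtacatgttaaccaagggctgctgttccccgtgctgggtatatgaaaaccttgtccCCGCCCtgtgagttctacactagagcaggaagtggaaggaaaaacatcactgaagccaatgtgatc

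The LINC00620 start was the richest in G and C, at 72.7% with 31 CpG dinucleotides, and held none of the motifs. LINC02098, at 44.0% with 4 CpG, held none either. LINC02454, at 48.7% with 7 CpG, held 1 GC box. The LOC389602 start shown, at 51.0% with 3 CpG, held 1 AP-1 match and 1 GC box. Another start of LOC389602 in the same region, at 41.3% with 5 CpG, held none of the motifs. Of the 8 starts inside called members, 1 held the AP-1 motif. Over all 524 starts inside tested members, the median content of G and C was 53.0%, compared with 58.7% over the 35116 starts of the promoter table. The AP-1 motif was present in 88 of the 524 (16.8%) and in 7.71% of all starts. Among lncRNA starts alone the shares were 19.2% of 339 inside tested members and 10.4% of 12917 in the table. The GC box showed the opposite order, in 29.2% of starts inside tested members and 45.0% of all. The PPAR element was in none of the 524 and in 8 of all starts. These shares were not tested, and a match to a motif does not show that a factor binds there.

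MicroRNA hairpins are a second kind of annotated gene that remote regions hold, in whole or in part. Hairpins overlapped 29 members, of which 22 were tested. The mature sequences of 8 well-studied products are shown with the seed, bases 2 to 8, in capitals, since the seed sets which transcripts a microRNA pairs with. They were chosen after their values were seen. The hairpin of miR-199a-5p overlaps its region only in part. That mature sequence lies at chr1:172144592-172144614, past the region's end at 172144582.
hsa-let-7i-5p: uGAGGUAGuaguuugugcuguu
hsa-miR-193a-3p: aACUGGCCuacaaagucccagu
hsa-miR-9-5p: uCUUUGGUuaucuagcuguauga
hsa-miR-29a-3p: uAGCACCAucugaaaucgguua
hsa-miR-29b-3p: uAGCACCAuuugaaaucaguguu
hsa-miR-365a-3p: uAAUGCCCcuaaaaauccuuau
hsa-miR-137-3p: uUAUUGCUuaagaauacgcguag
hsa-miR-199a-5p: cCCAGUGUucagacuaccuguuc

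miR-29a and miR-29b carry the same seed and come from 1 region, chr7:130874044-130882033, which the authors' deposited table assigns to KLF14, with a log2 fold change of 0.29 ± 0.23. The region with let-7i, a member of a microRNA family that restrains growth-promoting transcripts, is chr12:62601522-62607685. It also holds the starts of its host gene MIRLET7IHG and of LINC01465, and in the authors' deposited table it is assigned to MON2 at a mean level of 318, the fourth highest of all members. Its log2 fold change there was 0.32 ± 0.20, close to the median of all tested regions. The miR-137 hairpin, whose product is known to repress MITF, lies with MIR2682 in chr1:98045110-98046442, with the largest value of the 22 in the authors' deposited table, 0.86 ± 0.36 (adjusted p = 0.191). All 22 values were positive, from 0.04 to 0.86 with a median of 0.31, where 87.3% of all tested regions and 78.0% of tested remote ones were positive. The median level of the 22 was 87.4, compared with 36.1 for all tested remote regions. Among remote regions the negative share was 24.4% in the lowest of 5 groups by level and 13.5% in the highest. None of the 22 was called in the authors' deposited table, a count near that of the background, since 1.67% of all tested regions were called.

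Of the 6728 tested remote regions 105 were called by the authors' deposited adjusted p-values (1.56%), compared with 1.67% of all tested regions (608 of 36436). Of these calls 101 were positive and 4 negative, where 1.65% of all tested regions were positive calls and 0.0192% negative ones. The share called among remote regions was thus near the background. The 4 negative calls were 4 of only 7 in the whole table (57.1%), while remote regions made up 18.5% of the tested regions. At an unadjusted p-value under 0.05 the authors' deposited table held 972 positive and 74 negative remote regions. The positive ones were 14.4% of tested remote regions against a background of 17.9%, and the negative ones 1.10% against 0.475%. Remote regions supplied 42.8% of the 173 regions with a negative value at that level in the authors' deposited table, and 14.9% of the 6538 with a positive one. Beyond 500 kb the negative share at that level was higher still, 1.64% (22 of 1344 tested regions). A raised negative share was thus not particular to remote regions.

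The fold changes of remote regions had a lower median and a wider spread than those nearer genes. Tested remote regions had a median of 0.26 on the log2 scale in the authors' deposited table, a ratio of 1.20, with quartiles of 0.04 and 0.48. Over all tested regions it was 0.32. The median was 0.35 at gene starts, 0.35 within 10 kb, 0.31 from 10 to 100 kb and 0.27 beyond 500 kb in the same table. The SD across remote regions was 0.36, compared with 0.21 at starts, and their median SE was 0.32 compared with 0.25. The other classes were closer, with an SD of 0.32 within 10 kb, 0.33 from 10 to 100 kb and 0.35 beyond 500 kb. A negative value was given to 1481 remote regions (22.0%), to 1.91% of regions at starts, to 12.4% within 10 kb, to 16.0% from 10 to 100 kb and to 19.5% beyond 500 kb. The differences between distance classes were not tested, since the table used here holds no values of single libraries.

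Within the remote class the nearest bin had the highest median and the 2 farthest bins the lowest. In the authors' deposited table the median was 0.30 at 100 to 150 kb (2331 tested regions), 0.24 at 150 to 200 kb, 0.25 at 200 to 300 kb, 0.21 at 300 to 400 kb and 0.21 at 400 to 500 kb (521 tested regions). The share with a negative value went from 18.4% in the nearest of these bins through 22.6%, 23.2% and 25.8% to 26.7% in the farthest. Mean levels were close across the bins, with medians from 37.6 in the nearest to 34.6 at 200 to 300 kb in the authors' deposited table. The called share was 2.02% at 100 to 150 kb and 1.34% at 400 to 500 kb.

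**Figure D1:**
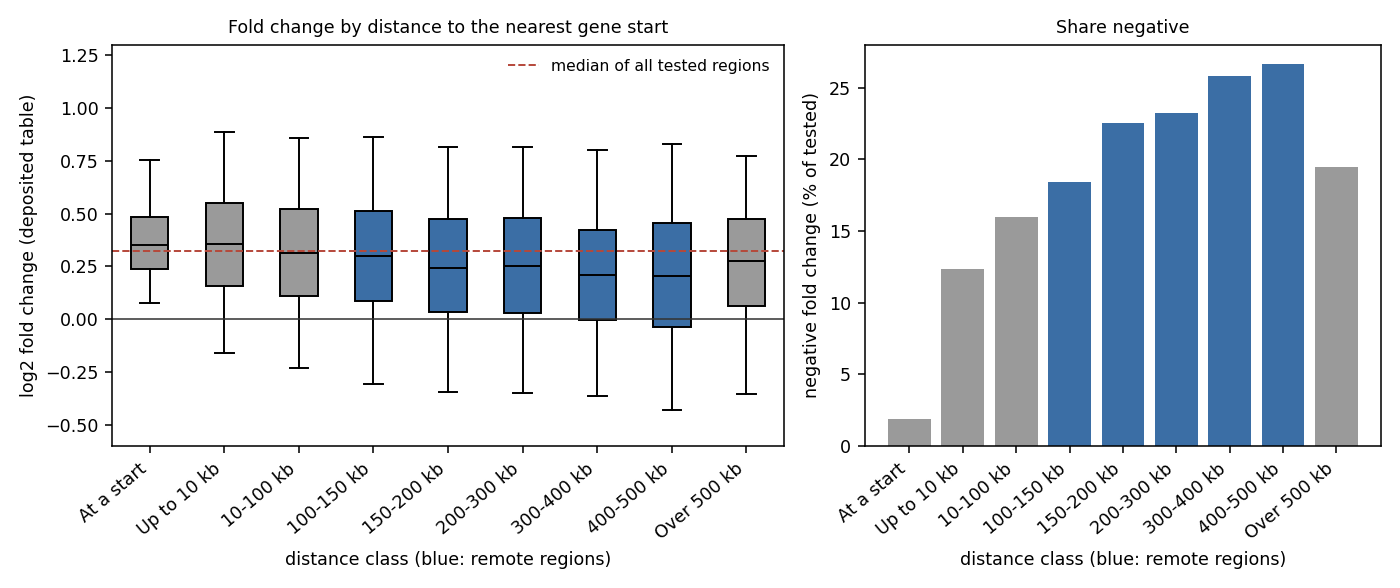
Left, log2 fold change in the deposited table by distance from the region to its nearest listed gene start; boxes show the quartiles and median, whiskers the 5th and 95th percentiles over tested regions, blue boxes the remote regions and the dashed line the median of all tested regions (0.32). Right, percentage of tested regions with a negative value, which went from 1.91% at starts to 26.7% at 400 to 500 kb and was 19.5% beyond 500 kb.

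The lower median of remote regions, compared with those nearer genes, was also present at matched level and on most chromosomes. In each of 5 groups of tested regions of equal size by mean level, the remote median lay between 0.25 and 0.27 in the authors' deposited table, while that at 10 to 100 kb lay between 0.31 and 0.32. The median beyond 500 kb lay between 0.23 and 0.30, so a low median was not particular to remote regions. The negative share of remote regions was 24.4% in the lowest of these groups and 13.5% in the highest, where regions at starts had 1.31%. On 22 of 23 chromosomes the remote median was under that at starts, with chromosome 19 as the exception (0.40 in both, from 30 remote regions). On 21 of 23 it was under that at 10 to 100 kb, with chromosomes 8 and 12 as the exceptions. The lowest remote median in the authors' deposited table was that of chromosome 18, at 0.18 over 152 regions, none of them called.

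Because nearly all groups of regions share a positive shift, values were also taken relative to the median of all tested regions, 0.32. Of the remote regions 42.0% then lay above it. With the authors' SE and adjustment over the same regions, 16 remote regions passed a threshold of 0.05, 1 above and 15 below, in place of 101 positive and 4 negative. The backgrounds were 0.0521% above (19 regions) and 0.0714% below (26 regions). Beyond 500 kb, 3 of 1344 tested regions passed below the median (0.223%), the same share as among remote ones (0.223%). Remote regions supplied 15 of the 26 regions below the median and 1 of the 19 above. The 1 region above was that of CDH23. Of the 105 calls, 5 passed on this scale, CDH23 and the 4 negative ones. The others below the median carried the assigned genes NANOGP8, COLEC12, COBL, GDAP2, UNC5C, SEPT14, ANKRD1, ADAMTS17, SLC38A4, OSR1 and PCED1B, with values between -0.88 and -0.66 in the authors' deposited table.

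The 10 called regions with the largest positive values are given first. The region of MYRIP, which links melanosomes and secretory granules to myosin motors, at chr3:39916216-39919616 within the gene, had 1.77 ± 0.36 (adjusted p = 0.00152) in the authors' deposited table. The region of RAP1GAP2, a GTPase-activating protein for Rap1, at chr17:2866652-2868305 within the gene, had 1.76 ± 0.37. Next came FAM84B at 1.57 ± 0.36 and HS3ST3A1, a heparan sulfate sulfotransferase, at 1.57 ± 0.31, both outside protein-coding genes. CDH23, the cadherin of hair-cell tip links, had 1.53 ± 0.29 at chr10:71612130-71615608 within the gene, with the smallest adjusted p of all members in the authors' deposited table (0.000241). MEGF6 (1.49), TTC27 (1.48), ZEB2 (1.46), the kinase gene PRKCA (1.46) and TMTC1 (1.40) followed in the authors' deposited table. Of the 10, 7 lay in the body of their assigned gene. Their mean levels were between 20.2 and 46.9, where the median of tested members was 36.1. With adjustment over all 91107 regions MEGF6 (adjusted p = 0.0522) and TMTC1 (adjusted p = 0.0870) did not pass, and after centring CDH23 was the 1 of the 10 that did. Exon and intron annotation was not used here, so places are given by gene body only.

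The 5 called members of highest level had smaller values. PHF20, a reader protein of an acetyltransferase complex, led with a mean level of 179 and 0.92 ± 0.20 within its gene. The region of HMGA2, an architectural chromatin protein, had a level of 175 and 0.74 ± 0.22 in the authors' deposited table. That of ETS1, a transcription factor, had 162 and 0.81 ± 0.20. A region of ALG10, a glucosyltransferase of N-glycan assembly, had 148 and 0.94 ± 0.24. SMYD3, a lysine methyltransferase, had 141 and 0.81 ± 0.23 in the authors' deposited table. With adjustment over all 91107 regions HMGA2 (adjusted p = 0.109) and SMYD3 (adjusted p = 0.0873) did not pass. The HMGA2 and ETS1 regions are the ones that hold the LINC02454 and LINC02098 starts printed above. Of the other called members with a start, RBM47, an RNA-binding protein, had 1.04 ± 0.30 at another start of its own gene, HIST1H2BL had 0.95 ± 0.28 at LOC124901292 and FBLN2, an extracellular matrix protein, had 0.98 ± 0.26 at LINC00620 in the authors' deposited table. None of these 3 passed over all regions (adjusted p = 0.0621 to 0.109). The highest members with lncRNA starts were not called. These were MON2 with the let-7i host gene, then FOXD4L6 (level 296, 0.29 ± 0.20), ZFP36L2 (232, 0.22 ± 0.22), IRF2BP2 (226, 0.11 ± 0.22) and TMCO5A (219, 0.18 ± 0.21) in the authors' deposited table.

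Of the 4 negative calls, 3 are described here. RNF144B, a ubiquitin ligase, had -1.38 ± 0.37 (adjusted p = 0.0226) at chr6:18535239-18537896, outside protein-coding genes, in the authors' deposited table. KCNC2, a voltage-gated potassium channel, had -1.18 ± 0.33 (adjusted p = 0.0311) at chr12:74979391-74982167, also outside them. ARAP2, a GTPase-activating protein for Arf, had -1.13 ± 0.29 (adjusted p = 0.0180) at chr4:36052757-36056399 within its gene. When the deposited p-values were adjusted over all 91107 regions, ARAP2 (adjusted p = 0.0448) passed, and RNF144B (adjusted p = 0.0560) and KCNC2 (adjusted p = 0.0767) did not.

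**Figure D2:**
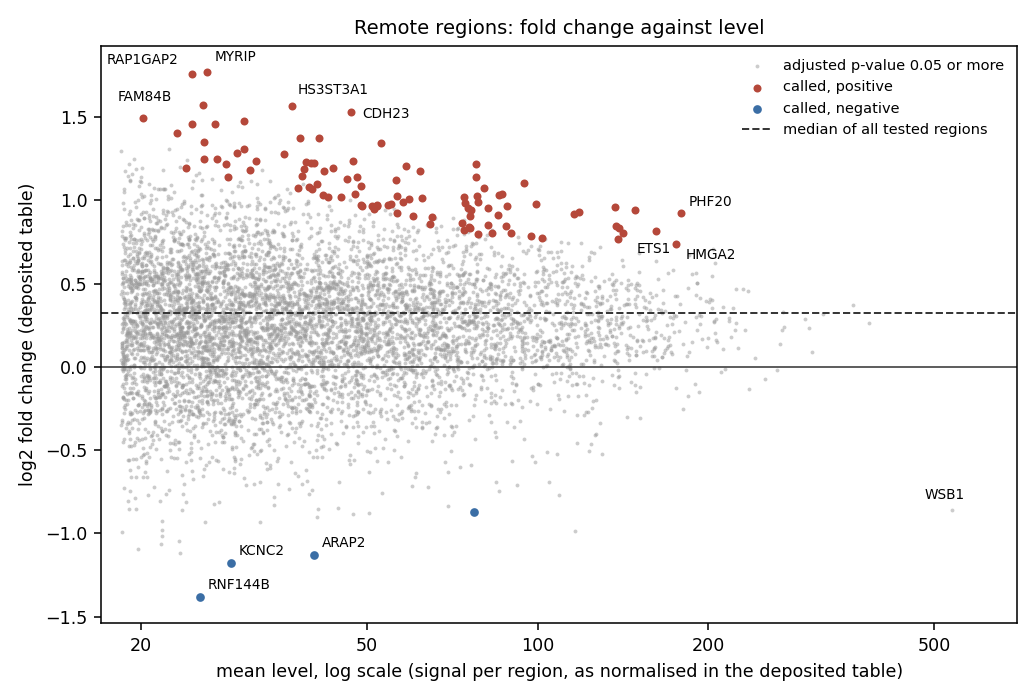
Log2 fold change against mean level for the 6728 tested remote regions, from the deposited table, with the called positive regions in red, the called negative ones in blue and the median of all tested regions (0.32) as a dashed line. The 101 positive calls run along the upper edge, and the 4 negative calls have levels between 25.4 and 77.3.

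The members of highest level of all were not called. A region assigned to WSB1 at chr17:26882154-26885957 had a mean level of 537 and -0.86 ± 0.35 (adjusted p = 0.168) in the authors' deposited table. Per kb of width it had 141, and another WSB1 region and 1 of MTRNR2L1 on the same chromosome had 172 and 105, where the median of tested members was 16.0. Both of these were negative as well, at -0.98 ± 0.45 and -0.90 ± 0.46 in the authors' deposited table. The 3 regions of highest level per kb thus lie on chromosome 17 close to its centromere, and all are negative. Among the members next in level were TPTE (level 384, 0.26 ± 0.18), MON2 (318, 0.32 ± 0.20) and BNC2 (304, 0.09 ± 0.19) in the authors' deposited table.

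Remote regions were assigned to 3634 genes, with a median of 4 and at most 47 per gene. The genes with most members were ZNF608 (47 regions), SPRY2 and TRPS1 (39 each), KLF12 and TENM2 (38 each), ASAP1 and EXT1 (37 each), FGGY (36), JARID2 and PLGLB2 (35 each). None of their members was called in the authors' deposited table, where 1.67% of all tested regions were called. With 6 to 18 tested regions per gene, the absence of calls is near that share. Their values differed from gene to gene. All 16 tested regions of SPRY2, a feedback inhibitor of growth factor signalling, were positive, with a median of 0.33. So were all 10 of KLF12, a transcriptional repressor (median 0.48), and all 11 of ASAP1, a regulator of Arf GTPases (0.42). ZNF608 had 9 positive and 9 negative regions with a median of -0.02 in the authors' deposited table. TRPS1, a repressor of the GATA family, had 9 positive and 4 negative (0.15), and JARID2, a partner of Polycomb repressive complex 2, 11 and 3 (0.19). EXT1, an enzyme of heparan sulfate synthesis, had 10 and 1 (0.26), FGGY 12 and 4 (0.09), TENM2 6 and 1 (0.12) and PLGLB2 4 and 2 (0.05).

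Values of neighbouring remote regions were alike at short range. Between consecutive tested remote regions under 5 kb apart (1025 pairs) Pearson's r was 0.65 and Spearman's rho 0.63, and 79.2% of pairs had the same sign. At 5 to 20 kb (1334 pairs) r was 0.46, at 20 to 100 kb (1683 pairs) 0.25, and over 100 kb (2663 pairs) 0.04, with 68.2% of pairs of the same sign. The median difference in log2 fold change between neighbours rose from 0.18 under 5 kb to 0.33 over 100 kb. All pairs share the same 4 libraries, so the correlations describe regions and carry no test.

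**Figure D3:**
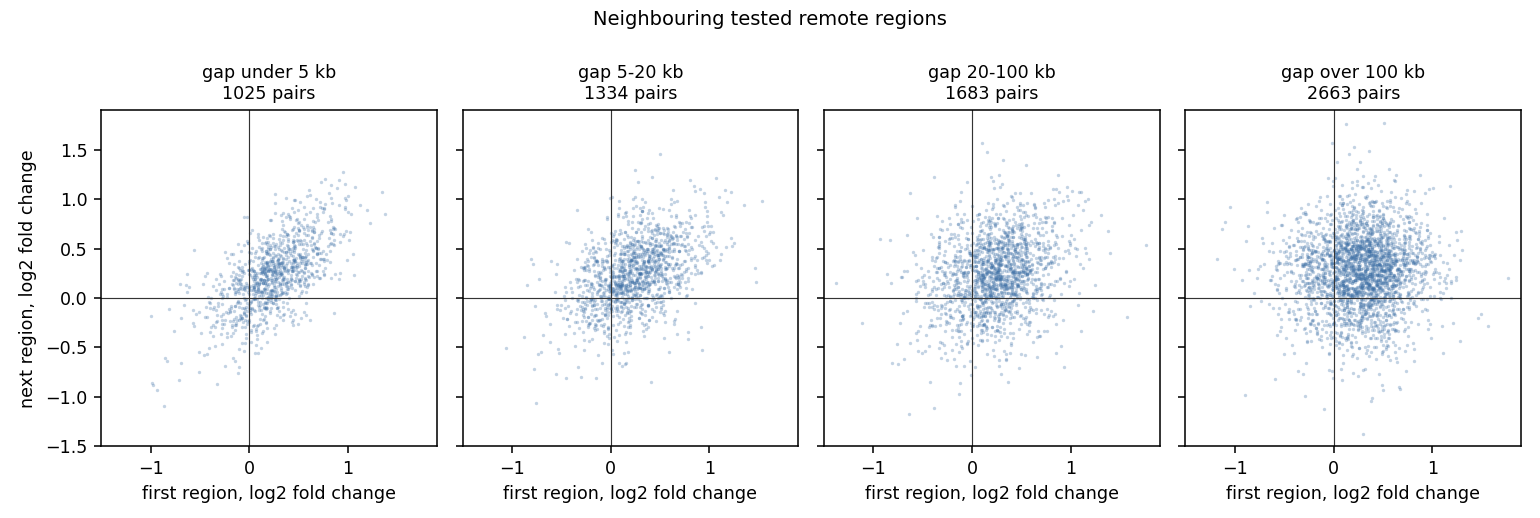
Log2 fold change of each tested remote region (horizontal axis) and the next one along the chromosome (vertical axis) in the deposited table, by the gap between them; each point is a pair of regions. The points lie along the diagonal under 5 kb (r of 0.65) and form a round cloud over 100 kb (r of 0.04).

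The likeness of neighbours showed in the genes with several called regions. The 11 tested regions of LY86, which encodes a partner of an immune-cell receptor, were all positive, from 0.42 to 1.22 with a median of 0.85. Of these, 2 were called, at chr6:6789539-6793071 (1.22 ± 0.36) and chr6:6808410-6814311 (1.22 ± 0.25), and 8 had an unadjusted p under 0.05 in the authors' deposited table. The 6 tested regions of ALG10 were all positive with a median of 1.01, and 3 adjoining ones, spanning 17.5 kb, were called. They lie close to the centromere of chromosome 12. The 6 of ETV1, a transcription factor of the ETS family, were all positive with a median of 0.90 and 2 called (1.03 ± 0.26 and 1.03 ± 0.30) in the authors' deposited table. The 5 of ABCA1, the pump for cholesterol efflux, were all positive with a median of 0.93. Its 2 called regions lay on opposite sides of its start, at 133672 bases within the gene (0.97 ± 0.24) and at 124507 bases outside it (1.07 ± 0.30). With adjustment over all regions 1 call each of LY86 (adjusted p = 0.110), ALG10 (0.0656), ETV1 (0.103) and ABCA1 (0.0742) did not pass.

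Further genes with 2 called regions were PAPPA, HMGA2, RTL1, SSTR4 and SHH. PAPPA, a protease that frees insulin-like growth factors, had 0.96 ± 0.21 and 0.92 ± 0.23 in regions 478371 and 459608 bases from its start. Its 5 tested regions from 422120 to 149870 bases on that side had -0.22 to 0.41, and 1 on the other side, within the gene, had 1.17 ± 0.35 (adjusted p = 0.0531) in the authors' deposited table. HMGA2 had 0.74 ± 0.22 and 0.91 ± 0.25 in adjoining regions, and -0.06 ± 0.32 and 0.19 ± 0.22 in the 2 tested regions on the other side of its start, within the gene. RTL1, an imprinted gene, had 0.97 ± 0.29 and 0.92 ± 0.27, and SSTR4, a somatostatin receptor, 0.95 ± 0.26 and 1.28 ± 0.33. SHH, the ligand of the Hedgehog pathway, had 0.84 ± 0.25 and 1.14 ± 0.30 in the 2 regions with lncRNA starts, and another region at 1.31 ± 0.39 (adjusted p = 0.0504) in the authors' deposited table. With adjustment over all regions both calls of HMGA2 and of RTL1 and 1 each of SSTR4 (adjusted p = 0.0649) and SHH (0.111) did not pass, while both of PAPPA did.

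**Figure D4:**
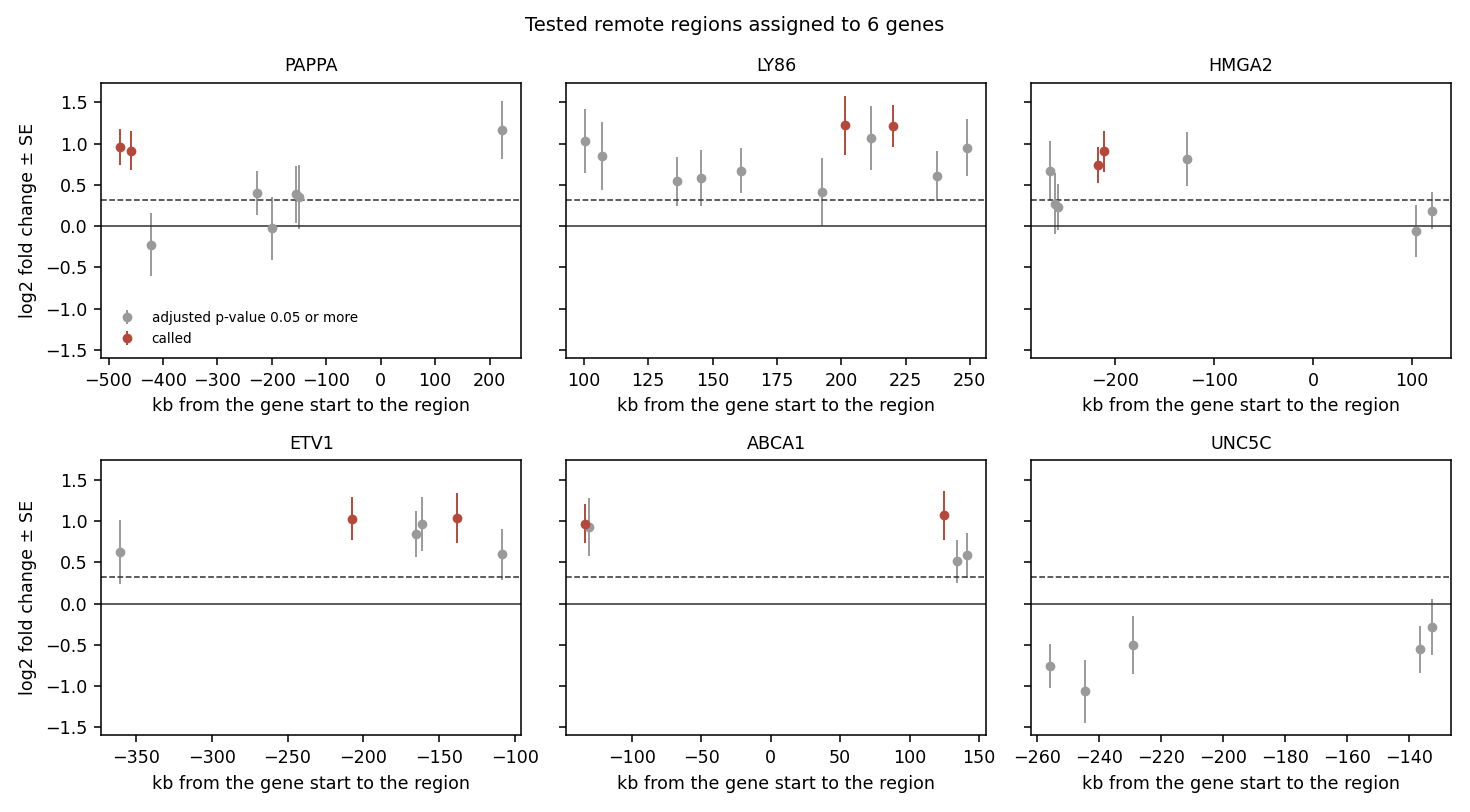
Log2 fold change with SE of each tested remote region of 6 genes against the distance from the gene start to the region, in kb and counted towards higher coordinates, from the deposited table; red points are called, the dashed line is the median of all tested regions (0.32). PAPPA has its 2 called regions farthest from its start (0.96 and 0.92), LY86, ETV1 and ABCA1 are positive in every tested region, and all 5 UNC5C regions are negative.

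Whole groups of negative regions were found at a few genes. Of 441 genes with 5 or more tested remote regions, 144 had only positive values in the authors' deposited table, 6 only negative ones and 57 a negative median. The genes named here were chosen after their values were seen, from those with the lowest medians and a tested start region. The 5 tested regions of UNC5C, a netrin receptor, ran from -1.06 to -0.29 with a median of -0.56, and the start region of UNC5C had -0.06 ± 0.33 in the authors' deposited table. The 6 of FAM3C, a secreted protein, ran from -0.54 to -0.16, with 0.09 ± 0.22 at its start. COBL, an actin nucleator, had 8 negative regions of 10 with a median of -0.50, and 0.47 ± 0.37 at its start. PRICKLE1, a planar polarity protein, had 6 of 8 with a median of -0.36 and 0.27 ± 0.29 at its start. No region of these 4 genes was called in the authors' deposited table. On chromosome 12 a region assigned to SLC38A4 (-0.69 ± 0.22) and 1 assigned to PCED1B (-0.66 ± 0.24) were 968 bases apart, so regions of 1 stretch with like values stood under different genes.

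The start of a gene and its remote regions were compared for 1499 genes with tested regions of both kinds. The median of the gene's remote regions was under the value at its start in 944 genes (63.0%). In 248 genes (16.5%) the remote median was negative and the start positive, in 26 genes the reverse held, and in 9 both were negative in the authors' deposited table. Across these genes Pearson's r between start and remote median was 0.10 and Spearman's rho 0.096, given as a description. Calls fell on remote regions of 94 genes, 54 of which had a tested start region, with start values from 0.05 to 1.03 and a median of 0.44. The median start value over all 1499 genes was 0.36, and the difference was not tested. RORB, a nuclear receptor, was the 1 gene of these with both a called start (1.03 ± 0.26, adjusted p = 0.0144) and a called remote region (0.80, adjusted p = 0.0428, and 0.105 over all regions) in the authors' deposited table. Over all tested regions at starts 0.860% were called (86 of 9996), so 1 of 54 is near the background. A further 37 of the 94 genes had no region at their start, among them LY86, SHH, RTL1, SSTR4, CDH23, MYRIP and KCNC2. The same was true of CDH5, an endothelial cadherin, which had 16 remote regions and 1 positive call (1.22 ± 0.34; adjusted p = 0.0840 over all regions). Of all 3634 genes with remote regions, 1255 had no start region, and the median of their 1961 tested remote regions was 0.27 compared with 0.25 for genes with a tested start.

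Position relative to gene bodies made little difference to the values. By RefSeq gene bounds 9033 members (43.2%) lay in their assigned gene, 498 in another protein-coding gene and 11386 (54.4%) outside protein-coding genes. The medians of the tested members were 0.26, 0.30 and 0.25, and calls numbered 44 of 2903, 1 of 198 and 60 of 3627 in the authors' deposited table. Members upstream and downstream of the assigned start had the same median, 0.26. Members with an annotated start had higher values, with a median of 0.33 over 435 tested and 11.5% negative, compared with 0.25 and 23.0% over 5905 without one. The median level of the tested members with a start was higher as well, 55.7 compared with 35.0 for those without one. For those with a protein-coding start the median was 0.38 (153 tested) and the negative share 5.23% in the authors' deposited table. The 1273 members on chromosome 8 were not looked up for starts.

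Gene lists drawn up for melanoma and fatty acids were then read across the remote regions, each count beside the background of all tested regions: 1.67% called, a median of 0.32, and 17.9% positive and 0.475% negative at an unadjusted p under 0.05. Among 28 genes of melanocyte identity and pigmentation, 11 had remote regions, 49 in all, of which 13 were tested. None was called, none had an unadjusted p under 0.05 and the median was 0.08 in the authors' deposited table. The members of highest level were those of MITF, the master regulator of the lineage (0.39 ± 0.24), LEF1, a Wnt effector (0.08 ± 0.26), and OCA2, a melanosomal transporter (0.40 ± 0.28). The list of the dedifferentiated, AP-1-driven melanoma state had 87 tested regions with a median of 0.18 and 2 positive calls. These were JUN, a subunit of AP-1, at 0.97 ± 0.28 (adjusted p = 0.0403), and ZEB2 at 1.46 ± 0.35 in the authors' deposited table. Over all regions JUN (adjusted p = 0.0989) did not pass. Its members of highest level, 2 of SOX9 and 1 of THBS1, had -0.13 ± 0.22, 0.08 ± 0.24 and 0.10 ± 0.23.

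Developmental transcription factors had most remote regions of the lists, 789 at 65 of 80 genes. Of 267 tested, 6 were called (2.25%), all positive, and the median was 0.31 in the authors' deposited table. The calls were those of ETS1, HMGA2 and ETV1 given above and 1 of SALL4, a stem-cell zinc finger protein (1.01 ± 0.28; adjusted p = 0.0703 over all regions). BNC2 and CUX1, the other members of highest level besides HMGA2, had 0.09 ± 0.19 and 0.09 ± 0.23. MAPK output and feedback genes had 78 tested regions, 0 called, 20 positive and 0 negative at an unadjusted p under 0.05, and a median of 0.37 in the authors' deposited table; the background at that p was 17.9% positive and 0.475% negative. SPRY2, PHLDA1 and DUSP10 held its highest regions, at 0.36 ± 0.22, 0.09 ± 0.21 and 0.28 ± 0.23.

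Genes of fatty acid oxidation and PPAR targets had few remote regions, 50 at 7 of 57 genes. Of 17 tested, 0 were called and 4 had an unadjusted p under 0.05, all positive, with a median of 0.33 in the authors' deposited table. With so few regions, that count is near the background of 17.9% positive. PPARGC1A, a coactivator of mitochondrial genes, had 0.70 ± 0.23 (adjusted p = 0.0875), PPARG -0.07 ± 0.24 and ECI2, an isomerase of fatty acid oxidation, 0.03 ± 0.26. Secreted growth factors and antagonists had 98 tested regions, a median of 0.23 and 1 call, VEGFC, a lymphatic growth factor (0.99 ± 0.23, adjusted p = 0.00787). Its highest regions were 2 of BMP7 (0.24 ± 0.22 and 0.10 ± 0.21) and 1 of BTC (0.49 ± 0.23) in the authors' deposited table. Axon guidance and neural adhesion genes had 162 tested regions, a median of 0.18, 14 positive and 3 negative at an unadjusted p under 0.05, and 2 positive calls, among them EFNB2, an ephrin (0.99 ± 0.27; adjusted p = 0.0606 over all regions), in the authors' deposited table. The highest regions of that list, 1 of ROBO1 and 2 of SEMA3C, had -0.04 ± 0.21, 0.04 ± 0.23 and 0.41 ± 0.22.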

How the data were processed

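H3K27ac chromatin of A375 cells was profiled in 2 vehicle and 2 octanoate libraries, grouped by the treatment in the labels. Per the submitters' processing notes the tools were Trim Galore, cutadapt, FastQC, Bowtie2, Picard, MACS2, featureCounts, DESeq2 and bedtools 2.29.1, with build hg38; their roles and settings are not given in the sources used here. The deposited table names no numerator. Its mean level is a signal the authors normalised, and its fold change and SE are on the log2 scale, per the file headers. Its score, the statistic in the deposited table, equalled fold change over SE to within 3.38e-14. The deposited p-value equalled the two-sided normal p of that score to within 2.89e-15, and Benjamini-Hochberg adjustment over 36436 regions gave the authors' adjusted values to within 1.58e-14. Distances are the authors' values in bases, per the file headers; for 87.6% of 15906 members they were within 1 kb of the distance to a RefSeq start of the assigned gene. Depth per library is unknown, and 0 columns of single libraries were left out.

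Lines repeating a region were merged (97 members have more than 1 line). Calls are the authors' adjusted p-values under 0.05, as the design provided for a table with no value per library. In centring, the median of tested regions was subtracted and the normal p-value taken from the authors' SE. Gene bodies, starts and sequences came from RefSeq (GRCh38.p14), and 19865 members carry a current gene symbol, 700 an older one only and 352 neither. Centring with its adjustment was tested on simulated data, and the other steps were not. Python 3.11.15, pandas 2.3.3, scipy 1.17.1 and statsmodels 0.14.6 were used. Regions were named by rule: the 10 largest positive calls, all negative calls, the 5 highest called and the 5 highest members, the 10 genes with most members, 10 genes with 2 or more calls, the calls and 3 highest regions of each list, the regions nearest the limits, and the calls and 5 highest members that hold a start of a gene without protein product. Exceptions are marked in the text. Some regions named by the rule are not reported here. The members, lists and rules were chosen with earlier results of these data known. Region sequences were not read.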

Additional observations from a re-analysis of the deposited data

How the results depend on the processing

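Of 6728 tested remote regions 105 were called in the deposited comparison. The count was 23 at an adjusted p-value under 0.01. It was 60 for calls with a fold change of 1 or more in size on the log2 scale. With adjustment over all distinct regions 41 were called, of 250 in the whole table. After centring the count was 16 (1 above the median and 15 below, in place of 101 positive and 4 negative). It was 40 of 2979 tested members beyond 200 kb and 58 of 2186 whose level was 50 or more. In the last settings fewer regions enter by construction. With no limit on width there were 126 of 7064 tested, and without members that hold an annotated start, an alternative chosen after seeing the data, 98 of 6293. The setting without starts keeps the members on chromosome 8, which were not looked up for starts. For the settings of threshold, size, distance, level, width and starts, no share over all tested regions is given, so their counts describe remote regions only. The median log2 fold change lay between 0.23 and 0.26 under all its alternatives, including 0.25 without members that hold a start. The share positive, 78.0%, was 68.6% over all members with no filter, 82.9% at a level of 50 or more and 42.0% after centring on the median of all tested regions (0.32), which lies above the remote median; with no limit on width it was 78.6%, and without members that hold a start 77.3%.

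Of 40 named called regions, 19 lost the call with adjustment over all distinct regions and 35 after centring. No paired analysis was possible because single libraries have no values in the files. For that reason leaving out a library, another normalisation and another count test were not run. The SE of a tested remote region (median 0.32) exceeded their median fold change (0.26), and the depth behind it is unknown.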
